A study of Sus scrofa with 24 samples.

Results

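The colony-stimulating factors are the secreted growth factors CSF1 (macrophage colony-stimulating factor, M-CSF), CSF2 (granulocyte-macrophage colony-stimulating factor, GM-CSF) and CSF3 (granulocyte colony-stimulating factor, G-CSF). They were taken by symbol from the deposited table of read counts, and all 3 had 10 or more reads in at least 1 library, as did 13653 of the 25880 genes of that table. The libraries were made from cultured cells of the pig medial meniscus, a crescent of fibrocartilage between femur and tibia. Cells of the inner zone (nearest the free edge) and of the outer zone (the larger remainder) of menisci from skeletally mature female pigs were expanded for 1 passage, moved to stretchable collagen-coated plates and studied in 8 groups of 3 wells. In each zone these groups were stretched with IL-1, unstretched with IL-1, stretched without IL-1, and unstretched without IL-1 (here called untreated). Stretch was a cyclic strain of 5% at 0.5 Hz, IL-1 was recombinant porcine IL-1α at 0.1 ng/mL, and RNA was taken as soon as the single loading session ended. Each zone's cells were a pool from at least 3 menisci, so the 3 wells of a group were not 3 animals and every p-value measures the spread between wells. The sample titles carry a code whose meaning was not given, and each value of it belonged to 1 treatment in both zones, so the code and the treatment cannot be told apart in any effect of IL-1 or stretch.

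Colony-stimulating factors are named for the blood cell colonies they support in culture. CSF1 is made steadily by many mesenchymal cells and keeps macrophages and osteoclast precursors alive through the receptor CSF1R, which it shares with IL-34. CSF2 and CSF3 are low in resting cells and are induced by inflammatory signals such as IL-1, and they act on myeloid cells: CSF2 through the receptor CSF2RA and the common beta chain CSF2RB, and CSF3 through CSF3R, which calls neutrophils out of the marrow. In joints the 3 factors are known as products of inflamed synovial and cartilage cells.

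Depth was similar across libraries, at 25377054 to 35284474 reads in genes. Fibrochondrocyte markers were abundant, with 11 of 12 among the tested genes. They summed to between 83619 and 108768 CPM (reads scaled to a common library size after TMM normalization) in every library. This sum does not by itself establish the cell type. Of 15 leukocyte markers, 8 were tested, and PTPRC, which encodes the pan-leukocyte antigen CD45, had at most 1 read in any library, while CD163 had none. The summed leukocyte markers were 29.7 to 35.3 CPM in the 6 inner wells with IL-1, against 21.7 to 24.2 CPM in the 6 without it, and 45.1 to 48.9 CPM in the 6 outer wells with IL-1, against 25.9 to 32.5 CPM in the 6 without it. Most of each sum was CD14, at 15.8 to 41.7 CPM, and the part of these markers in the IL-1 results was not tested. Of 6 endothelial markers 1 was tested, and their sum was at most 9.60 CPM.

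All 3 genes were found in the RefSeq annotation of the pig genome Sscrofa11.1, on separate chromosomes, and no other annotated gene overlapped any of them on either strand. CSF2 (ENSSSCG00000023737) lies at chr2:134354724-134357155 on the plus strand, CSF3 (ENSSSCG00000017488) at chr12:22333445-22335949 on the minus strand, and CSF1 (ENSSSCG00000037449) at chr4:110178466-110198232 on the minus strand. The 250 bases before the first annotated base are given for CSF2, which was almost absent without IL-1, and for CSF1, which was high throughout. In the CSF2 window the capitals mark a TATAA motif, from 27 to 23 bases before the start, and this motif was in 17.2% of the 19559 windows of protein-coding genes. In the CSF1 window they mark a match to the NF-κB consensus on the opposite strand, from 54 to 45 bases before the start, a motif found in 14% of all windows. The longest run of letters that both windows shared was 8 bases.
CSF2, chr2:134354474-134354723, plus strand: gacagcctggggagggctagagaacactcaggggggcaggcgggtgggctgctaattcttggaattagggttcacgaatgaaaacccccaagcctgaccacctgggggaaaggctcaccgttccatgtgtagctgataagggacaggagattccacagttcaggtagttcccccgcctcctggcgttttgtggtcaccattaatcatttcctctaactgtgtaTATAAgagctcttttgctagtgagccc
CSF1, chr4:110198233-110198482, minus strand: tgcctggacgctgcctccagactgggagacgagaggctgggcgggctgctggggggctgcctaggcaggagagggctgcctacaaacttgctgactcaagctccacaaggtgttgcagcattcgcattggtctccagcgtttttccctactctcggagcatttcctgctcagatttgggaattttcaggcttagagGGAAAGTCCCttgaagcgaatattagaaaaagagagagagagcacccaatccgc

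The same windows were searched on both strands for 2 further motifs. The AP-1 motif TGANTCA was in the CSF1 window, from 159 to 153 bases before the start, and in 5.27% of all windows. The C/EBP-type motif TTNNGNAA was in the CSF1 window at 1 place, from 77 to 70 bases before the start, and in 31.7% of all windows. The CSF2 window held no match to these motifs or to the NF-κB consensus, and the CSF1 window held no TATAA. Only exact matches to each pattern were counted, so near matches are not covered. A match describes these letters and is not a measured binding site.

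The untranslated 3′ ends of the 3 transcripts differed in AU-rich elements, the ATTTA repeats through which decay factors shorten the life of many cytokine mRNAs. The CSF2 3′UTR held 11 ATTTA pentamers, overlaps counted, in 328 bases, which is 33.5 per kb (for every gene the model with the longest 3′UTR was read). CSF3 held 6 in 837 bases (7.17 per kb), and CSF1 held 4 in 2120 bases (1.89 per kb), against a median of 1.32 per kb over 17023 pig 3′UTRs of 100 bases or more. Only 0.0117% of those 3′UTRs were as dense as CSF2 or denser, against 2.58% for CSF3 and 40.1% for CSF1. The nonamer TTATTTATT occurred 3 times in CSF2 and not in CSF3 or CSF1, and 0.66% of 18190 genes had 3 or more. The 30 bases with most pentamers (capitals) in each 3′UTR show this order.
CSF2, chr2:134357061-134357090, plus strand: tATTTATTTATTTATTTAtctATTTATTTA
CSF3, chr12:22334237-22334266, minus strand: tccagtgtATTTAtctctATTTAatATTTA
CSF1, chr4:110178528-110178557, minus strand: tttatatgaagtcATTTAaatatctATTTA

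**Figure D1:**
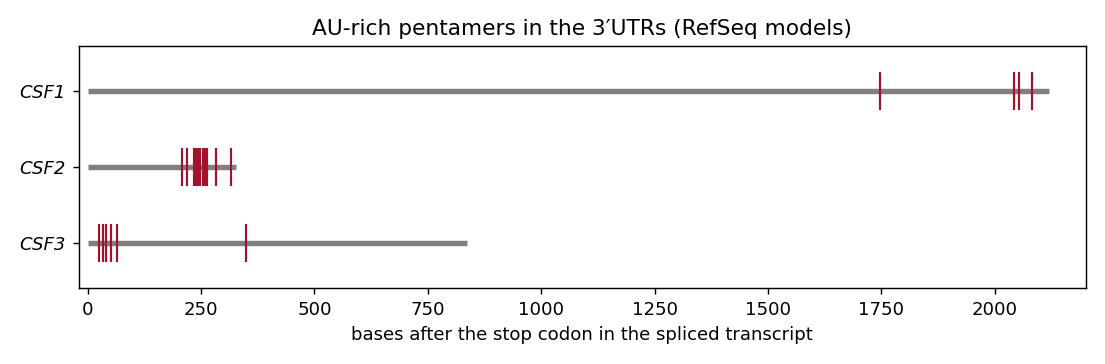
Positions of ATTTA pentamers (red ticks) along the 3′UTR (grey bar) of CSF1, CSF2 and CSF3, in bases after the stop codon, in the RefSeq model of each gene with the longest 3′UTR. The 11 pentamers of CSF2 lie in its last part, whereas 5 of the 6 in CSF3 lie close to the stop codon and the 4 in CSF1 lie far from it.

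Across the 8 groups the 3 genes had different levels and different orders. In CPM per kilobase of RefSeq exon, CSF1 was the highest of the 3 in every group. In unstretched inner wells with IL-1 its median was 126.5, against 27.2 for CSF2 and 5.70 for CSF3, and in untreated inner wells it was 65.2, with CSF2 and CSF3 both under 0.1. CSF3 exceeded CSF2 on this per-length scale with IL-1 only in unstretched outer wells, where CSF3 spanned 23.4 to 28.4 and CSF2 spanned 12.0 to 16.8.

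**Figure D2:**
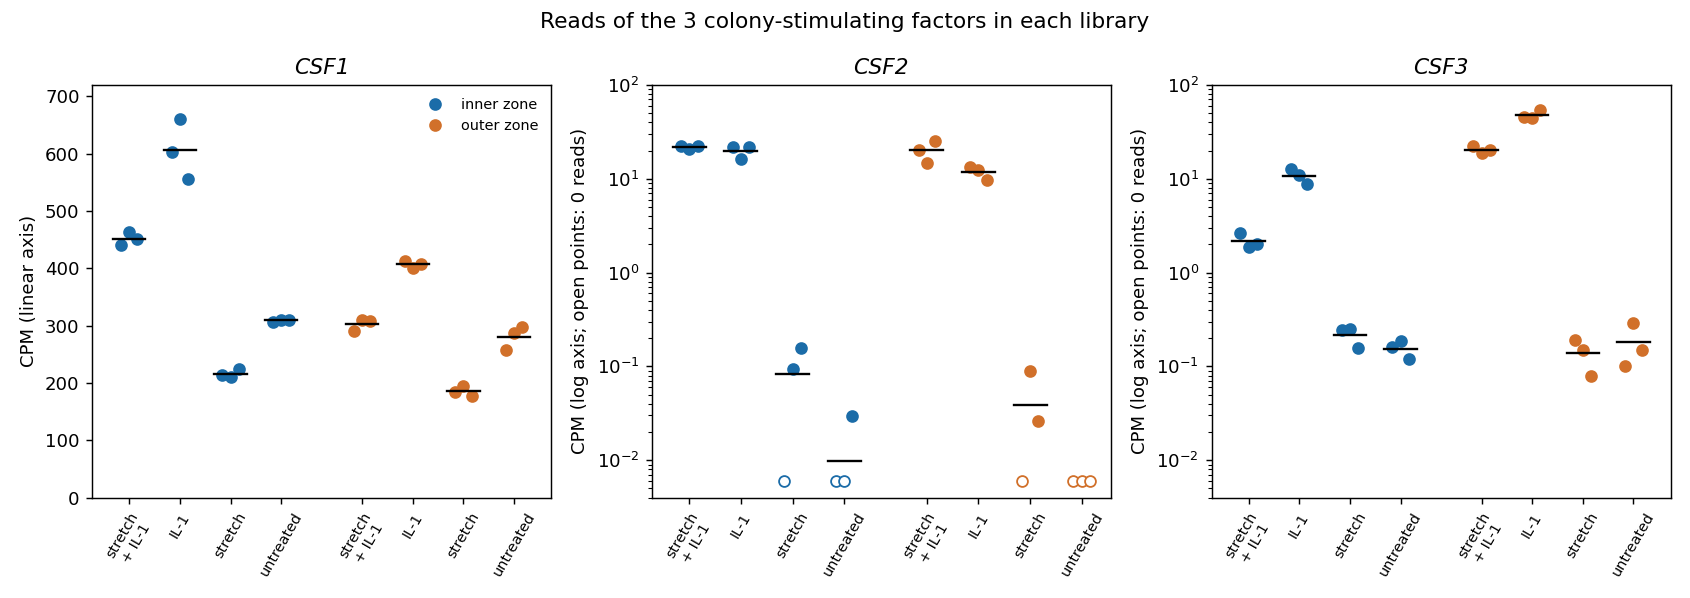
CPM of CSF1 (linear axis), CSF2 and CSF3 (log axes) in each of the 24 libraries, by zone and treatment. Each point is a library, a bar is the mean of 3, and open points at the foot of an axis are libraries with 0 reads (no bar where all 3 are at 0). CSF2 and CSF3 are high only in the wells with IL-1, and CSF3 is lower in stretched than in unstretched wells with IL-1 in both zones.

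The order of the group means shows which factors each gene followed. Mean CSF1 was 606 CPM in unstretched inner wells with IL-1, then 452 CPM in stretched inner wells with IL-1 and 407 CPM in unstretched outer wells with IL-1. The next 3 groups overlapped in turn: untreated inner wells at 309 CPM, stretched outer wells with IL-1 at 303 CPM and untreated outer wells at 281 CPM. Stretched wells without IL-1 were lowest, at 216 CPM in the inner and 186 CPM in the outer zone. For CSF2 the 3 highest groups overlapped in turn, at 21.9 CPM (stretched inner with IL-1), 20.1 CPM (stretched outer with IL-1) and 20.0 CPM (unstretched inner with IL-1), and unstretched outer wells with IL-1 stood below them at 11.8 CPM. CSF3 had no overlap among its IL-1 groups, which ran from 48.2 CPM (unstretched outer) through 20.4 CPM (stretched outer) and 10.8 CPM (unstretched inner) to 2.19 CPM (stretched inner). Without IL-1 its 4 groups overlapped, at 0.140 to 0.218 CPM. Lower reads of a gene in such bulk samples can come from fewer cells that express it or from less of its RNA per cell, which cannot be told apart.

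IL-1 raised all 3 factors in both zones. In what follows a gene is said to have risen or fallen when its adjusted p (edgeR's quasi-likelihood test, two-sided, with Benjamini-Hochberg adjustment over 13653 genes) was under 0.05, and it is said to have been called when its fold change was also over 2. In unstretched cells CSF2 and CSF3 were called in both zones, where 8.42% (inner) and 8.2% (outer) of all genes were called as higher. Both genes had under 10 reads in every library without IL-1 and passed the filter on low counts only through the wells with IL-1, so their calls are not read against these shares, here or in stretched cells. CSF1 rose in both zones without passing 2-fold, as part of the 32.6% (inner) and 31.1% (outer) of genes that rose at any fold.

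CSF2, which supports granulocytes and macrophages, was almost absent until IL-1 was added. It had 556, 387 and 674 reads in unstretched inner wells with IL-1, against 0, 0 and 1 read in untreated inner wells. In outer wells it had 353, 321 and 283 reads with IL-1, against 0 reads in each of the 3 untreated wells. No well without IL-1 came near any well with it. Summed over the wells and scaled by library size, CSF2 in unstretched outer wells with IL-1 was 368-fold over a floor of 3 reads for the untreated group. The outer ratio itself has no value, since the untreated wells held 0 reads, and its lower 95% counting bound was 298. The inner ratio was 1956, with a lower 95% counting bound of 351, since it rests on 1 read, and such bounds cover counting error only. The fitted log2 fold changes were 10.44 ± 0.54 (SE, n = 3 against 3, adjusted p from edgeR 1.79e-11) in inner and 11.48 ± 0.72 (adjusted p 2.72e-10) in outer cells. They depend on the handling of zeros: without the inner untreated well that held the 1 read, the inner value was 12.24.

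CSF3, the neutrophil factor, had a measurable floor in every untreated well. In unstretched inner wells it had 12.6, 10.9 and 8.89 CPM with IL-1, against 0.162, 0.184 and 0.119 CPM in untreated wells. In unstretched outer wells it had 45.7, 44.7 and 54.3 CPM with IL-1, against 0.100, 0.293 and 0.150 CPM in untreated wells. The groups were far apart in both zones, although an untreated library held only 3 to 9 CSF3 reads. Its log2 fold change was 6.08 ± 0.23 (adjusted p from edgeR 2.20e-21) in inner and 8.03 ± 0.18 (adjusted p 8.73e-28) in outer cells.

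CSF1, the macrophage survival factor, changed far less on top of a high starting level. It had 602, 661 and 556 CPM in unstretched inner wells with IL-1, against 307, 310 and 310 CPM in untreated inner wells. In outer wells it had 413, 400 and 408 CPM with IL-1, against 257, 288 and 297 CPM untreated. Neither pair of groups overlapped. The log2 fold change was 0.97 ± 0.05 (adjusted p from edgeR 3.43e-17) in inner and 0.54 ± 0.05 (adjusted p 6.05e-11) in outer cells, which is 1.96-fold and 1.45-fold. Upper-quartile scaling shifted the median gene by −0.18 in both IL-1 comparisons of unstretched cells, and CSF1 was then still higher with IL-1, at 0.79 in inner and 0.36 in outer cells.

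**Figure D3:**
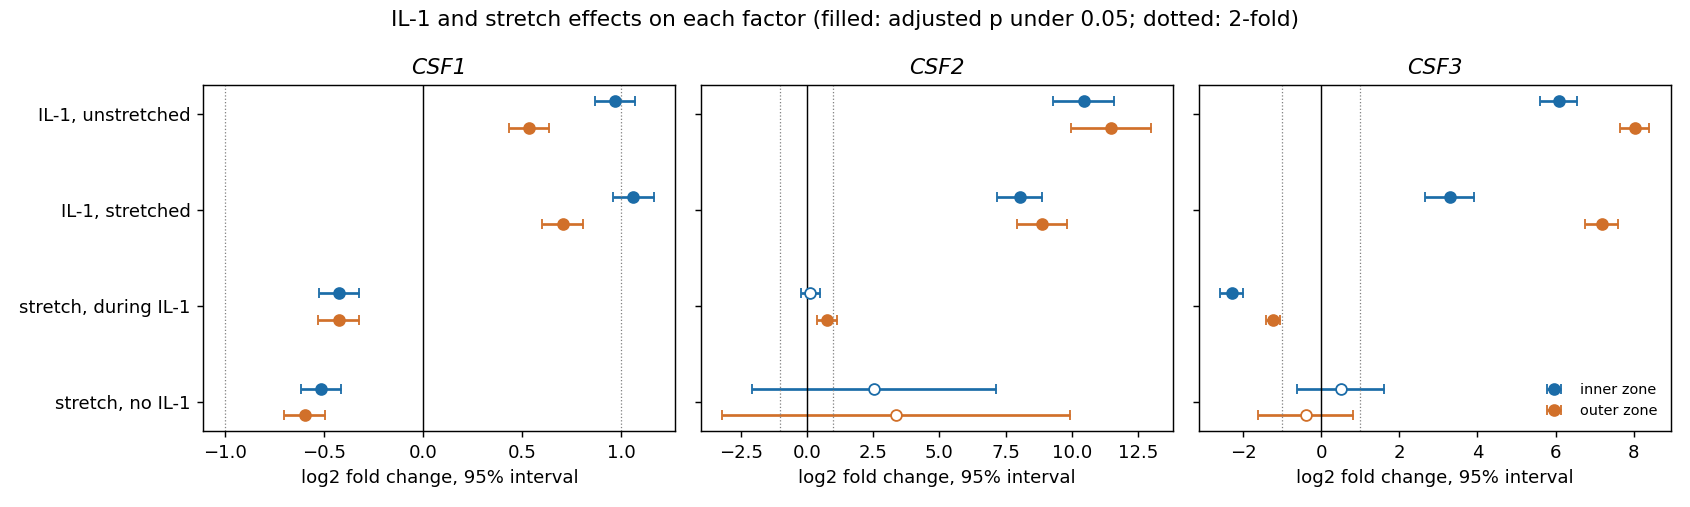
Log2 fold changes (x axis) of CSF1, CSF2 and CSF3 with IL-1 and with stretch (rows), by zone. Points are edgeR estimates over 3 against 3 wells, bars are 95% intervals, filled points have an adjusted p under 0.05 and dotted lines mark 2-fold. IL-1 effects lie to the right of 0 for all 3 genes, stretch effects on CSF1 lie to the left in all 4 comparisons, and CSF3 lies left of −1 with stretch during IL-1.

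The IL-1 effect was also measured in stretched cells. All 3 members were called as higher in stretched inner cells, where 6.04% of genes were called as higher and 27.2% rose at any fold. In stretched outer cells CSF2 and CSF3 were called and CSF1 rose, against 6.42% of genes called as higher and 28.5% that rose at any fold. CSF2 had 538, 523 and 761 reads in stretched inner wells with IL-1, against 0, 3 and 5 reads in stretched inner wells without it. It had 592, 402 and 749 reads in stretched outer wells with IL-1, against 0, 3 and 1 reads without it. CSF3 showed the widest gap between zones here: its log2 fold change was 3.28 ± 0.30 (adjusted p from edgeR 4.57e-11) in stretched inner and 7.19 ± 0.21 (adjusted p 1.14e-24) in stretched outer cells. This gap was not tested as its own term. Its part without IL-1 rests on 22 CSF3 reads summed over the stretched inner wells and 14 over the stretched outer wells. CSF1 had log2 fold changes of 1.06 ± 0.05 (inner) and 0.71 ± 0.05 (outer), and the inner value was 0.93, under 2-fold, with upper-quartile scaling.

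Without IL-1, stretch lowered CSF1 and gave no detectable change of the other members. CSF1 had 214, 211 and 224 CPM in stretched inner wells, against 307, 310 and 310 CPM in untreated inner wells. It had 185, 195 and 177 CPM in stretched outer wells, against 257, 288 and 297 CPM in untreated outer wells. All stretched wells were below all untreated wells of their zone. The log2 fold change of CSF1 was −0.52 ± 0.05 (adjusted p from edgeR 3.20e-09) in inner and −0.60 ± 0.05 (adjusted p 1.71e-10) in outer cells, so 70.0% and 66.1% of the untreated level was left. At any fold, 9.29% (inner) and 10.3% (outer) of genes fell. None of the 3 members was called, against 1.26% (inner) and 1.36% (outer) of all genes called in either direction.

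CSF2 and CSF3 were too low without IL-1 for stretch to be judged. CSF2 had 0, 3 and 5 reads in stretched inner wells, against 0, 0 and 1 in untreated inner wells, and 0, 3 and 1 in stretched outer wells, against 0 in each untreated outer well. The 8 against 1 reads of the inner zone gave a ratio of 7.73, with a 95% counting interval of 1.04 to 343, and the quasi-likelihood test of edgeR gave an adjusted p of 0.489. The outer difference had an adjusted p of 0.502. CSF3 had 0.247, 0.249 and 0.157 CPM in stretched inner wells, against 0.162, 0.184 and 0.119 CPM in untreated ones, and the groups overlapped. Its log2 fold change was 0.49 (95% interval −0.63 to 1.62) in inner and −0.40 (−1.62 to 0.81) in outer cells.

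During IL-1, stretch separated the members. CSF3 was called as lower in both zones and CSF1 fell, whereas CSF2 did not fall: it rose in outer cells and its inner difference did not pass the test. As lower with stretch, 2.26% (inner) and 1.77% (outer) of genes were called, and 18.1% and 15.1% fell at any fold. In outer cells 13.1% of genes rose at any fold. CSF3 had 2.63, 1.88 and 2.04 CPM in stretched inner wells with IL-1, against 12.6, 10.9 and 8.89 CPM in unstretched inner wells with IL-1. In outer wells with IL-1 it had 22.3, 18.7 and 20.1 CPM when stretched, against 45.7, 44.7 and 54.3 CPM when unstretched. Neither pair overlapped, and 20.3% of the unstretched CSF3 level was left in inner and 42.3% in outer cells. The log2 fold changes were −2.30 ± 0.14 (adjusted p from edgeR 2.33e-14) and −1.24 ± 0.09 (adjusted p 1.21e-12).

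CSF2 did the reverse in outer cells. It had 20.2, 14.7 and 25.3 CPM in stretched outer wells with IL-1, against 13.4, 12.5 and 9.60 CPM in unstretched outer wells with IL-1, and the groups did not overlap. The log2 fold change was 0.77 ± 0.18 (adjusted p from edgeR 0.00363), under 2-fold, and a fit on these 6 libraries alone gave an adjusted p of 0.111. In inner wells with IL-1 it had 22.1, 21.0 and 22.5 CPM when stretched, against 21.9, 16.3 and 21.7 CPM when unstretched, a log2 fold change of 0.13 (95% interval −0.23 to 0.49, adjusted p 0.617). The 2 inner groups overlapped.

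CSF1 lost about the same share in both zones. It had 440, 464 and 452 CPM in stretched inner wells with IL-1, against 602, 661 and 556 CPM in unstretched ones, and 290, 311 and 307 CPM in stretched outer wells with IL-1, against 413, 400 and 408 CPM in unstretched ones. The groups were apart in both zones. The log2 fold changes were −0.42 ± 0.05 (adjusted p from edgeR 3.22e-08) in inner and −0.43 ± 0.05 (adjusted p 5.92e-08) in outer cells.

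The count of CSF3 reads per CSF2 read in the same library needs no scaling between libraries. It was 0.119, 0.0899 and 0.0907 in stretched inner wells with IL-1, against 0.574, 0.669 and 0.409 in unstretched inner wells with IL-1. In outer wells with IL-1 it was 1.11, 1.28 and 0.794 when stretched, against 3.42, 3.58 and 5.65 when unstretched. All 4 groups stood apart, with stretched below unstretched in each zone and inner below outer at each stretch state. The geometric mean ratio was 5.45-fold lower with stretch in inner and 3.95-fold lower in outer cells, and 10.5-fold lower in inner than in outer cells with stretch and 7.60-fold lower without. Each of these 4 differences had an exact two-sided permutation p of 0.1, the smallest that 3 against 3 wells allow.

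**Figure D4:**
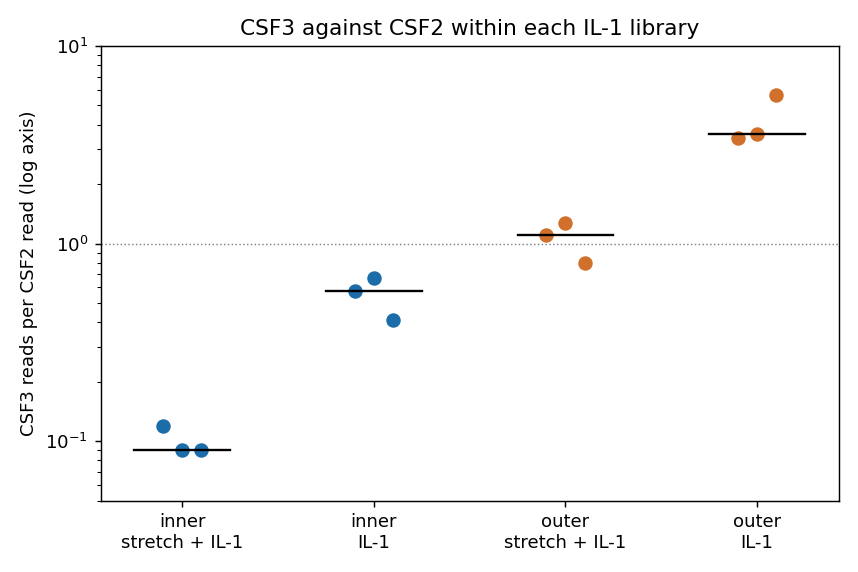
CSF3 reads per CSF2 read (log axis) within each of the 12 libraries with IL-1, by zone and stretch. Points are libraries, bars are group medians and the dotted line marks equal reads. The ratio is lowest in stretched inner wells, at 0.0899 to 0.119, and highest in unstretched outer wells, at 3.42 to 5.65.

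Whether stretch acted differently with IL-1 present was asked with the interaction term, the stretch effect with IL-1 minus that without it. In inner cells it was −2.79 ± 0.59 for CSF3 (log2, adjusted p from edgeR 6.36e-04), where 19.7% of genes passed. The value without IL-1 in this term rests on the low CSF3 counts given above. Since CSF3 passed the filter on low counts only through wells with IL-1, its passing is not read against that share. In outer cells the CSF3 interaction was −0.84 (95% interval −2.13 to 0.46, adjusted p 0.471), where 13.2% of genes passed. For CSF1 the interaction was 0.09 (95% interval −0.05 to 0.24) in inner and 0.17 (0.03 to 0.32) in outer cells, with adjusted p-values of 0.422 and 0.122, so the loss of CSF1 with stretch was not shown to differ with IL-1. The CSF2 interactions had intervals from −7.03 to 2.21 and from −8.84 to 3.63 and say nothing at these counts.

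The zones differed most for CSF3. With IL-1 alone CSF3 was called as lower in inner than in outer cells, at a log2 difference of −2.17 ± 0.10 (adjusted p from edgeR 9.50e-19), and with stretch and IL-1 the difference was −3.23 ± 0.13 (adjusted p 1.21e-19), so 22.2% and 10.6% of the outer level was measured in inner cells. CSF1 went the other way, higher in inner than in outer cells by 0.58 ± 0.05 both with IL-1 alone and with stretch and IL-1. CSF2 was higher in inner than in outer cells with IL-1 alone (0.77 ± 0.18, adjusted p 0.00230), and not detectably so with stretch and IL-1 (0.12, 95% interval −0.24 to 0.48). In these comparisons 46.8% and 48.1% of genes differed at any fold, so a zone difference of a member is no mark of it, and 6.88% and 6.96% were called. In untreated cells CSF1 was higher in inner cells by 0.14 ± 0.05 (adjusted p 0.0228) and in stretched cells by 0.22 ± 0.05 (adjusted p 6.07e-04), where 45% and 44.1% of genes differed at any fold. The untreated difference did not pass without any of 3 wells, inner replicates 2 and 3 and outer replicate 4, and was 0.08 without the last of these.

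The zones were then compared in their responses, by subtracting the outer from the inner effect. The CSF3 loss with stretch during IL-1 was larger in inner cells by −1.06 ± 0.18 (log2, adjusted p from edgeR 3.48e-04), where 2.33% of genes passed, and this value held in every setting tried. For CSF2 the same term was −0.65 ± 0.25 (adjusted p 0.212), with an adjusted p of 0.0269 without stretched outer IL-1 replicate 5, and for CSF1 it was 0.00 (95% interval −0.14 to 0.15). The IL-1 rise of CSF1 in unstretched cells was larger in inner cells by 0.44 ± 0.07 (adjusted p 6.27e-05), where 9.24% of genes passed. The IL-1 rise of CSF3 was smaller in inner cells by −1.95 ± 0.64, at an adjusted p of 0.0489 that did not pass in a fit of the 4 groups alone (0.0772) and in 6 of the 12 fits that left out 1 well.

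The receptors for these factors were at or near the limit of detection. CSF1R had 14 to 41 reads per library, at 0.660 to 1.05 CPM as group means, and no difference of it passed the test in the 8 comparisons of IL-1 or stretch. CSF2RB and CSF3R had 0 to 2 reads in every library, and CSF2RA was not analysed here. IL34, which encodes the other ligand of CSF1R, was measured at 232 to 327 reads in stretched inner wells with IL-1, against 312 to 349 in unstretched ones. IL34 fell with stretch in all 4 comparisons, by 0.54 (inner) and 0.63 (outer) on the log2 scale without IL-1 and by 0.34 (inner) and 0.53 (outer) with it, and it rose with IL-1 in stretched inner cells (0.39 ± 0.12, adjusted p from edgeR 0.00750), while its other 3 IL-1 differences did not pass the test. Both CSF1R ligands thus fell with stretch in both zones, with and without IL-1. IL5, a ligand of the common beta chain, had at most 8 reads in a library, and IL3 was not analysed here.

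Of 8 tested genes for other growth factors of blood cells, 7 rose and 1 fell with IL-1 in unstretched cells of both zones, where 32.6% (inner) and 31.1% (outer) of all genes rose and 32.8% and 33.5% fell. The list medians were 4.24 (inner) and 3.71 (outer) on the log2 scale, against −0.03 and −0.04 over all genes. This list and those below were chosen with earlier results of these data known. Which listed genes passed the filter on low counts only through wells with IL-1 was not examined, so the counts with IL-1 are descriptive. IL6, a driver of the acute-phase response, had log2 fold changes of 8.38 ± 0.20 in inner and 7.27 ± 0.19 in outer cells, and the osteoclast factor TNFSF11 (RANKL) of 6.18 ± 0.26 and 5.86 ± 0.21. LIF had 5.92 ± 0.15 and 4.96 ± 0.14, and IL11 had 5.02 ± 0.17 and 5.33 ± 0.15. KITLG, the stem cell factor, fell by 1.32 in inner and 0.60 in outer cells. With stretch during IL-1, 6 of these genes fell and 2 rose in inner cells, against 18.1% and 16.6% of all genes, and 3 fell and 1 rose in outer cells, against 15.1% and 13.1% of all genes. CXCL12, a chemokine that retains progenitors in marrow, fell in both zones, at −1.22 ± 0.10 in inner and −0.94 ± 0.10 in outer cells. The lymphocyte factor IL7 also fell in both, at −1.21 ± 0.34 and −0.97 ± 0.35. Both genes passed 2-fold in inner cells and stood just short of it in outer cells, and the zone difference was not tested.

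NF-κB subunits and regulators, which carry the IL-1 signal to the nucleus and control it, were higher with IL-1 throughout. In unstretched cells 10 of 10 rose in both zones, against 32.6% (inner) and 31.1% (outer) of all genes. Of these, 9 (inner) and 7 (outer) were called, against 8.42% and 8.2% of all genes. The medians were 2.33 and 1.75, against −0.03 and −0.04 over all genes. NFKBIZ and the inhibitor gene NFKBIA had log2 fold changes of 3.77 ± 0.11 and 3.63 ± 0.07 in inner cells and of 2.89 ± 0.11 and 3.15 ± 0.06 in outer cells. With stretch during IL-1 the list did not move one way, with 3 rising and 4 falling in inner cells, against 16.6% and 18.1% of all genes, and 2 rising and 2 falling in outer cells, against 13.1% and 15.1% of all genes. The one called member was BCL3, a nuclear cofactor of NF-κB, at −1.32 ± 0.07 in inner cells. BCL3 was also called as lower with stretch without IL-1, at −1.96 ± 0.10 in inner and −2.06 ± 0.09 in outer cells.

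The list of AP-1, NFAT, ETS, RUNX and C/EBP factors, which bind cytokine promoters, had 16 tested genes that moved in both directions with IL-1: 8 rose and 6 fell in inner cells, against 32.6% and 32.8% of all genes, and 8 rose and 5 fell in outer cells, against 31.1% and 33.5% of all genes. CEBPB and CEBPD, regulators of acute-phase and cytokine genes, had log2 fold changes of 2.70 ± 0.06 and 2.01 ± 0.08 in inner cells and of 1.86 ± 0.06 and 1.35 ± 0.08 in outer cells. FOS and FOSL2 were called as lower in both zones. With stretch during IL-1, NFATC2, a calcium-dependent activator of cytokine genes, was called as higher in inner (2.11 ± 0.06) and outer (1.65 ± 0.06) cells, and NFATC1 rose in both zones, past 2-fold in inner cells (1.26 ± 0.09) and under it in outer cells (0.74 ± 0.09). FOSB was called in inner cells (1.94 ± 0.25) and had 0.64 ± 0.25 in outer cells (adjusted p from edgeR 0.0583). In all, 5 rose and 3 fell in inner cells, against 16.6% and 18.1% of all genes, and 3 rose and 6 fell in outer cells, against 13.1% and 15.1% of all genes. Zone differences of these genes were not tested. CEBPB fell by 0.73 in inner and 0.26 in outer cells, under 2-fold. NFATC2 was also called as higher with stretch without IL-1, at 1.48 ± 0.06 in inner and 1.22 ± 0.06 in outer cells.

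The list of AU-rich element binding and mRNA decay had 11 tested genes. With IL-1, 10 rose in each zone and 1 fell in inner cells, against 32.6% (inner) and 31.1% (outer) of all genes that rose and 32.8% (inner) that fell, at medians of 0.42 (inner) and 0.36 (outer). The largest rises were those of ZC3H12A (regnase-1, an endonuclease that cleaves cytokine mRNAs) at 3.91 ± 0.06 in inner and 2.91 ± 0.06 in outer cells and ZFP36L1 at 1.85 ± 0.09 and 1.59 ± 0.09. With stretch during IL-1, 8 fell and none rose in inner cells, and 6 fell and none rose in outer cells, against 18.1% (inner) and 15.1% (outer) of all genes that fell. In both zones those that fell included ELAVL1, TIA1 and TIAL1, so these are not counts of decay factors alone. ZFP36 (tristetraprolin), which binds ATTTA repeats such as those shown above, had −0.98 ± 0.11 in inner and −1.10 ± 0.11 in outer cells and was called in outer cells. Without IL-1, 5 (inner) and 7 (outer) of these genes fell with stretch and none rose, against 9.29% and 10.3% of all genes that fell, ZC3H12A being called in inner cells at −1.15 ± 0.07. The list medians with stretch during IL-1 were −0.20 in inner and −0.19 in outer cells, against 0.01 over all genes in both zones.

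The RNA of JAK-STAT genes known to signal below the CSF receptors, and of genes for proteins that process CSF1 at the cell surface, was also followed. Whether the JAK-STAT genes act below CSF receptors in these cells was not tested, and those receptors were at or near the limit of detection. Of 9 JAK-STAT genes, 7 rose and 1 fell with IL-1 in both zones, at medians of 0.70 (inner) and 0.66 (outer). Over all genes 32.6% (inner) and 31.1% (outer) rose, and 32.8% and 33.5% fell. The 1 that fell was PIM1, called as lower at −1.31 ± 0.10 in inner and −1.61 ± 0.11 in outer cells. SOCS1, a feedback inhibitor, was 5.08 ± 0.24 higher on the log2 scale in inner and 3.83 ± 0.23 higher in outer cells, and STAT5A was 2.86 ± 0.05 and 2.56 ± 0.05 higher. With stretch during IL-1, 7 fell and 1 rose in inner cells and 5 fell and 1 rose in outer cells, against 18.1% (inner) and 15.1% (outer) of all genes that fell. SOCS1 was called in both zones, at −2.26 ± 0.18 and −1.95 ± 0.19. The sheddase ADAM17, which releases CSF1 from the membrane, was called as higher with IL-1 in both zones (1.27 ± 0.04 and 1.07 ± 0.04) and fell with stretch during IL-1 by 0.25 and 0.17. TIMP3, its inhibitor, rose with stretch during IL-1 by 0.95 in inner and 0.88 in outer cells, under 2-fold. TIMP3 also rose with IL-1 in unstretched inner cells (0.38) and in stretched inner (0.36) and outer (0.46) cells, but not detectably in unstretched outer cells. With stretch without IL-1 it rose in outer cells by 0.43. The release of CSF1 was not measured.

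The genes whose pattern was most like each member were found by Pearson r over the 8 group means of log2 CPM, among 10388 genes with a symbol and at least 1 CPM in their highest group. The 8 points share the IL-1 split, so high values were common: 592 genes had r over 0.95 with CSF2 and 422 with CSF3, against 25 with CSF1. For CSF2 the nearest were NLRP3 (the inflammasome sensor, r = 0.999), RGCC, MED13, UBE3A and PTGS2 (the inducible prostaglandin synthase, r = 0.997). For CSF3 they were LIPG (endothelial lipase, r = 0.994), ERO1B, OSBPL8, CNOT2 and TMEM164. LIPG also fell with stretch during IL-1, by 0.69 in inner and 0.39 in outer cells on the log2 scale. For CSF1 they were GNAI3, ROBO1, SCYL2, SPARC and CD2AP (r = 0.983 to 0.987). GNAI3, an inhibitory G protein subunit and the nearest of these, lies 329.1 kb from CSF1 on chromosome 4. Its effects were smaller, with IL-1 log2 fold changes of 0.33 in inner and 0.20 in outer cells. Over the 24 libraries instead of the group means, 2 of the 5 nearest genes of CSF1, 4 of CSF2 and 2 of CSF3 were again among the nearest 5. With a prior count of 0.5 in place of 2, which sets the level of genes near 0 reads, 5 of CSF1, 2 of CSF2 and 4 of CSF3 were again among them, and NLRP3 moved to rank 7 for CSF2. Among the members themselves r was 0.91 for CSF2 and CSF3, 0.76 for CSF1 and CSF2 and 0.66 for CSF1 and CSF3.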

How the data were processed

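Raw counts per gene were the only values used. As deposited, these counts come from stranded mRNA libraries that the authors trimmed, mapped to the pig genome Sscrofa11.1 with STAR, keeping uniquely mapped reads, and counted with HTSeq; whether counting used the strand was not given in the sources used here. The submitters' processing notes also name Trim Galore, cutadapt and DESeq2. A second deposited table of normalized counts was not used. The 24 columns were matched to samples by title.

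Genes with 10 or more reads in any library (13653) were fitted in edgeR 4.0.16 (R 4.3.3, limma 3.58.1) with TMM factors, a mean for each of 8 groups and a robust quasi-likelihood fit, two-sided, with Benjamini-Hochberg adjustment over all of them in each of 16 comparisons. Calls needed an adjusted p under 0.05 and, between groups, a fold over 2; interactions and zone differences needed the adjusted p alone. An SE is the log2 fold change divided by the square root of F, with 16 residual degrees of freedom before moderation. CPM used TMM library sizes, and likeness was computed on log2 CPM (prior count 2). Named genes were the members, the 5 genes most like each, the receptors and other ligands, and up to 4 called genes per list with the largest change. Others were named after their values were seen (PTPRC, CD163, CD14, SPI1, KIT, KITLG, ADAM17, TIMP3, CEBPB, ZFP36, IL5, FOS, ELAVL1, TIA1, TIAL1). Members and lists were chosen with earlier results of these data known. Replicates of a group differed beyond counting noise. The fit was also run on simulated data for stretch during IL-1 in inner cells alone, where no gene differed except planted ones. There 6 of 177 genes that passed were false. That setting does not cover the IL-1 comparisons, where many genes shifted and CSF2 was almost absent without IL-1.

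Sequences and positions are from RefSeq (NCBI annotation release 106) on the same assembly, an annotation other than the authors'. Each promoter is the 250 bases before the gene's first annotated base. The promoter of CSF3 is not reported here. Alternatives were other scalings (median-of-ratios, upper-quartile), other filters, DESeq2 1.42.0, a well-number block, the compared groups alone, and each replicate left out.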

Additional observations from a re-analysis of the deposited data

Results flagged for a closer look

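In inner zone cells the CSF3 interaction of stretch with IL-1 was −2.79 on the log2 scale. Its part without IL-1 rests on low counts, 22 CSF3 reads in stretched and 15 in untreated inner wells, each summed over 3 wells. Responses of the 2 zones differed for 3 results, each as the inner minus the outer effect on the log2 scale. The CSF3 response to stretch during IL-1 differed by −1.06, the CSF3 response to IL-1 in unstretched cells by −1.95, and the CSF1 response to IL-1 in unstretched cells by 0.44. Each was tested as its own term in the edgeR fit. The CSF3 difference in the IL-1 response is the weakest of the 4, since its adjusted p ran from 0.00425 to 0.177 over 19 alternative fits, while the other terms kept an adjusted p under 0.05 in all of theirs.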

How the results depend on the processing

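Member values kept their direction and their side of the threshold in 321 instances under other scalings, filters, tools or sample sets, with 2 losing and 1 gaining a call. They did so in 341 instances with 1 replicate left out, with 10 changing sign, 6 losing and 3 gaining a call. Between groups this threshold is the call, so a rise or fall under 2-fold that loses its adjusted p still counts as kept. The rise of CSF2 with stretch during IL-1 in outer cells is such a case. Every CSF3 call for IL-1 against none or stretched against unstretched cells was kept in each of them. With upper-quartile scaling the IL-1 effect on CSF1 in stretched inner cells was 0.93, under 2-fold, and the CSF1 interaction in outer cells was 0.22 and passed (adjusted p 0.0307). That scaling also moved the rising share of calls: for IL-1 in unstretched cells to 40.6% (inner) and 39.8% (outer) against 53.5% and 53.3%, for IL-1 in stretched inner cells to 50.7% against 62.6%, and for the interaction to 56.9% (inner) and 56.8% (outer) against 44% and 41%. A fit of the compared groups alone gave the zone difference of the CSF3 response to IL-1 as −1.96 (adjusted p 0.0772), and 188 against 318 genes passed for the zone difference of the stretch response during IL-1. That count ran from 182 to 505 with 1 replicate left out, reaching 505 without stretched inner IL-1 replicate 1. The cause of these shifts was not tested.

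With 1 replicate left out, the IL-1 effect on CSF1 in unstretched inner cells ran from 0.90 to 1.03, passing 2-fold without IL-1 replicate 3. The CSF1 interaction in outer cells ran from 0.13 to 0.23 and passed without untreated outer replicate 4, and the CSF1 zone difference in the stretch response during IL-1 ran from −0.057 to 0.069. CSF2 ran from 0 to 2.24 for inner against outer untreated cells, from −0.057 to 0.32 for inner against outer cells with stretch and IL-1, from −1.48 to 0.77 for the zone difference in the IL-1 response, and from −0.82 to −0.44 for that in the stretch response. CSF3 ran from −0.67 to 0.10 for stretch without IL-1 in outer cells, from −0.49 to 0.28 for inner against outer untreated cells, and from −2.45 to −1.68 for the zone difference in the IL-1 response. Low counts without IL-1, at most 9 reads of CSF3 and 5 of CSF2 in a library, limit each comparison that uses those wells.

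The number after W in the sample titles was read here as a well number, which the labels do not state. It showed no pairing of the samples. Same-numbered wells of different groups had correlations of −0.17 to 0.18, 5 of 36 over 0.1. Different-numbered wells had −0.22 to 0.18, 8 of 72 over 0.1. With the well number as a replicate block the CSF3 interaction in inner cells was −2.76 (adjusted p 1.37e-04), and no member's call changed. Zone comparisons have no blocked value, since the zones hold different well numbers, and zone and well number cannot be told apart in them.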
